A study of Rattus norvegicus with 112 samples.

Results

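Nptx2, Nptx1 and Plat encode proteins that neurons secrete, and their signal was followed over all treatments of a series of rat cortical neuron arrays. The rule took every probe set annotated to one of the 3 genes. It found 3 probe sets among the 1263 on the array that were not hybridization or labelling controls. Nptx2 was read by S82649_s_at and S82649_r_at, and Plat by M23697_at. No probe set was annotated to Nptx1, so 2 of the 3 genes were measured, out of 720 genes named on the array. Nptx2 was singled out because of its signal after a short NMDA pulse, so the values of the pulse experiment are given below as a description, without a test.

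The 112 arrays held RNA from primary cortical neurons, in 8 experiments hybridized in 10 runs. NMDA, which activates the glutamate receptors named after it, was used at 1 mM. In the pulse experiment it was left on for 10, 30 or 60 min and removed, and the cells were collected 24 h later (4 arrays per group, control included). A second pulse set repeated these groups with 1 array each. In the continuous experiment the neurons stayed in NMDA for 10, 30, 60, 180 or 360 min until collection (3 arrays per group). In the crossed experiment they received 10 µM nicotine, an agonist of nicotinic acetylcholine receptors, for 18 h, NMDA for 60 min, both, or neither, and were collected at once (3 arrays per group). The washed-out experiment used the same nicotine exposure, a 30 min NMDA pulse, both, or neither, followed by removal and a wait of 24 h (5 samples per group). Those 20 samples were hybridized in a first run and in a repeat run, the repeat made because of an oven failure. The remaining experiments compared untreated neurons with nicotine for 15 min and collection 45 min later, with 2 µM of 4R (a non-competitive antagonist of nicotinic receptors) for 18 h, and with the same 4R exposure followed by 24 h without it (3 arrays per group). Where the labels do not say that samples came from separate cultures, the spread between them may be technical.

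Neuronal pentraxins are secreted proteins that gather AMPA-type glutamate receptors at synapses. Nptx2, also called Narp, is the member whose transcript is induced by synaptic activity, while Nptx1 belongs to the same family and Nptxr anchors pentraxin complexes in the membrane. Plat encodes tissue plasminogen activator, a secreted protease that turns plasminogen into plasmin and that neurons release on stimulation.

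Nptx2 was the only member gene with a promoter window in the sequences used here, so its promoter is shown. Which transcript start its probe sets read was not checked. RefSeq places the 250 bases before the start of the gene on the minus strand of rat chromosome 12 in build GRCr8, at chr12:15162046-15162295. Capitals mark the motif matches that are spelled out after the sequence.
Nptx2 promoter: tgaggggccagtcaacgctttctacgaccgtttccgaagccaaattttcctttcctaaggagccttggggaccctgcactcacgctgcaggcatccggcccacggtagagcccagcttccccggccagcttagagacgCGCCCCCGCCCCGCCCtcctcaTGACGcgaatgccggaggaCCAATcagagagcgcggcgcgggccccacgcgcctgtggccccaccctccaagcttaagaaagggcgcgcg
On either strand, the window held 1 match to TGACG, the core of the cAMP response element, which begins 90 bases before the start. It held 1 match to CCAAT, 71 bases before the start, and 1 to the Egr motif GCGNGGGCG, which begins 112 bases before it. GGGCGG, the letters of the Sp1 box, matched at 107 and 102 bases before the start, and the first of these overlaps the Egr match. The full element TGACGTCA, the AP-1 motif TGANTCA and AAGGTCA, the motif of the Nr4a receptors, were not found in these letters. Among 33469 rat promoter windows of the same length, TGACG was present in 18.2%, CCAAT in 34.0%, GCGNGGGCG in 4.3% and GGGCGG in 30.5%. A match is a run of letters and does not show that a factor bound there.

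Signals are linear intensities that the authors had scaled to a common level, with a trimmed mean of 2483 to 2496 on every array. The Nptx2 probe set S82649_s_at ranked above 61.1% to 87.6% of the probe sets by its mean signal in its run, and Plat above 26.8% to 78.7%. Of 13 neuronal marker genes 10 were on the array, and all 10 lay above the filter on low signals in every run. Of 8 astrocyte markers 5 were on the array, and of 8 microglia markers only Itgam was. Among the arrays compared in groups, which leaves out 4 later arrays of pulse samples, 5 stood apart, with a median correlation to the other arrays of their run of 0.2 to 0.848 against 0.896 to 0.97 for the other 103. They were the 10 min array of culture 3 and the 60 min array of culture 4 in the pulse experiment, the 360 min array of replicate 3 in the continuous experiment, and controls 3 and 4 of the washed-out repeat run. The main results that use them are given with and without them. The 4 later arrays had a median correlation of 0.738 to 0.919, lowest for a second deposit of the 10 min array of culture 3, and enter no group. The array of the 30 min pulse on culture 1 carries 30 min in its title and 60 min in another label, and was read as 30 min.

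After each washed-off NMDA pulse, the mean signal of Nptx2 was several times its untreated level 24 h later. In the 4 untreated cultures the signal of S82649_s_at was 5047, 1144, 1319 and 1891. After 10 min of NMDA the same cultures gave 16307, 13261, 12320 and 3431. After 30 min they gave 13764, 9570, 5434 and 3856. After 60 min they gave 14559, 10064, 4839 and 5838. Every treated array was above the control of its own culture, although the highest control, culture 1, was above the lowest treated arrays. The group means were 2350 ± 1826 (SD, n = 4) without NMDA, 11330 ± 5534 (SD, n = 4) after 10 min, 8156 ± 4447 (SD, n = 4) after 30 min and 8825 ± 4443 (SD, n = 4) after 60 min. The arrays of the 3 pulse lengths overlapped, so their order cannot be read from these values. On the log2 scale the mean changes were 2.29, 1.86 and 2.00 (SE 0.56), and 2.18, 1.86 and 2.15 without the arrays that stood apart, while 2.26%, 1.36% and 1.58% of the 884 probe sets tested were called by limma after the 3 pulses. In RNA from whole cultures, a change per cell and a change in the share of cells that carry the transcript cannot be told apart.

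The cultures differed in the size of the Nptx2 change. Against the control of the same culture, the log2 difference after 10 min was 1.68, 3.46, 3.16 and 0.84 in cultures 1 to 4. Culture 2 had the largest difference after each of the 3 pulses, at 3.46, 3.00 and 3.07. Culture 4 gave 0.84, 1.00 and 1.59. Cultures 3 and 4 share a culture date in the labels. The 10 min array of culture 3 stood apart from its run, with a ratio of the 3' to the 5' GAPDH probe sets of 2.61, and that of the 60 min array of culture 4 was 12.34. The summed signal of the 10 neuronal marker genes was 202906 to 243816 on the control arrays, 165323 to 225267 after 30 min and 135301 to 210904 after 60 min. After 10 min it was 48010 to 250914, with the lowest value on the array of culture 3 that stood apart. In cultures 1 and 2, where no array stood apart, the Nptx2 differences were 1.68 and 3.46 after 10 min.

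The other Nptx2 probe set, S82649_r_at, is of the kind for which the array's maker dropped a probe selection rule, and it gave lower signals. Its untreated cultures were at 1645, 692, 860 and 1900. After 10 min of NMDA they were at 3483, 4819, 2994 and 907, after 30 min at 4327, 3541, 876 and 2364, and after 60 min at 4957, 5925, 3933 and 3226. The treated array was above its own control in 3 of 4 cultures after 10 min and in 4 of 4 after 30 and 60 min. Culture 4 after 10 min was the exception. This count holds for the first arrays only. On the later arrays of the same samples, S82649_r_at read 574 in culture 3 after 30 min. In culture 4 it read 741 after 10 min and 1571 after 60 min. All of these are below the controls of their cultures, which have no later array. The mean log2 changes were 1.11, 0.99 and 1.85 (SE 0.53), and 1.05, 0.99 and 2.00 without the arrays that stood apart.

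In the second pulse set, which was run apart from the first and has 1 array per group, S82649_s_at read 954 without NMDA and 5346, 4642 and 5370 after 10, 30 and 60 min. These are 5.6, 4.86 and 5.63 times the control. S82649_r_at read 926, 2225, 2225 and 3072 in the same order. The set has no replicates, and 8.94%, 9.16% and 9.16% of the probe sets were at least 2 times higher than in its single control after the 3 pulses.

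Of the pulse samples, 4 have a later array in another run. The 10 min array of culture 3 was deposited a second time with almost the same values, since 1320 of 1322 probe sets differed by no more than 0.05, so it adds no measurement. The repeat arrays of culture 4 read S82649_s_at at 3439 after 10 min and 3571 after 60 min, against 3431 and 5838 on the first arrays. The repeat of the 30 min sample of culture 3 read 5206 against 5434.

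**Figure D1:**
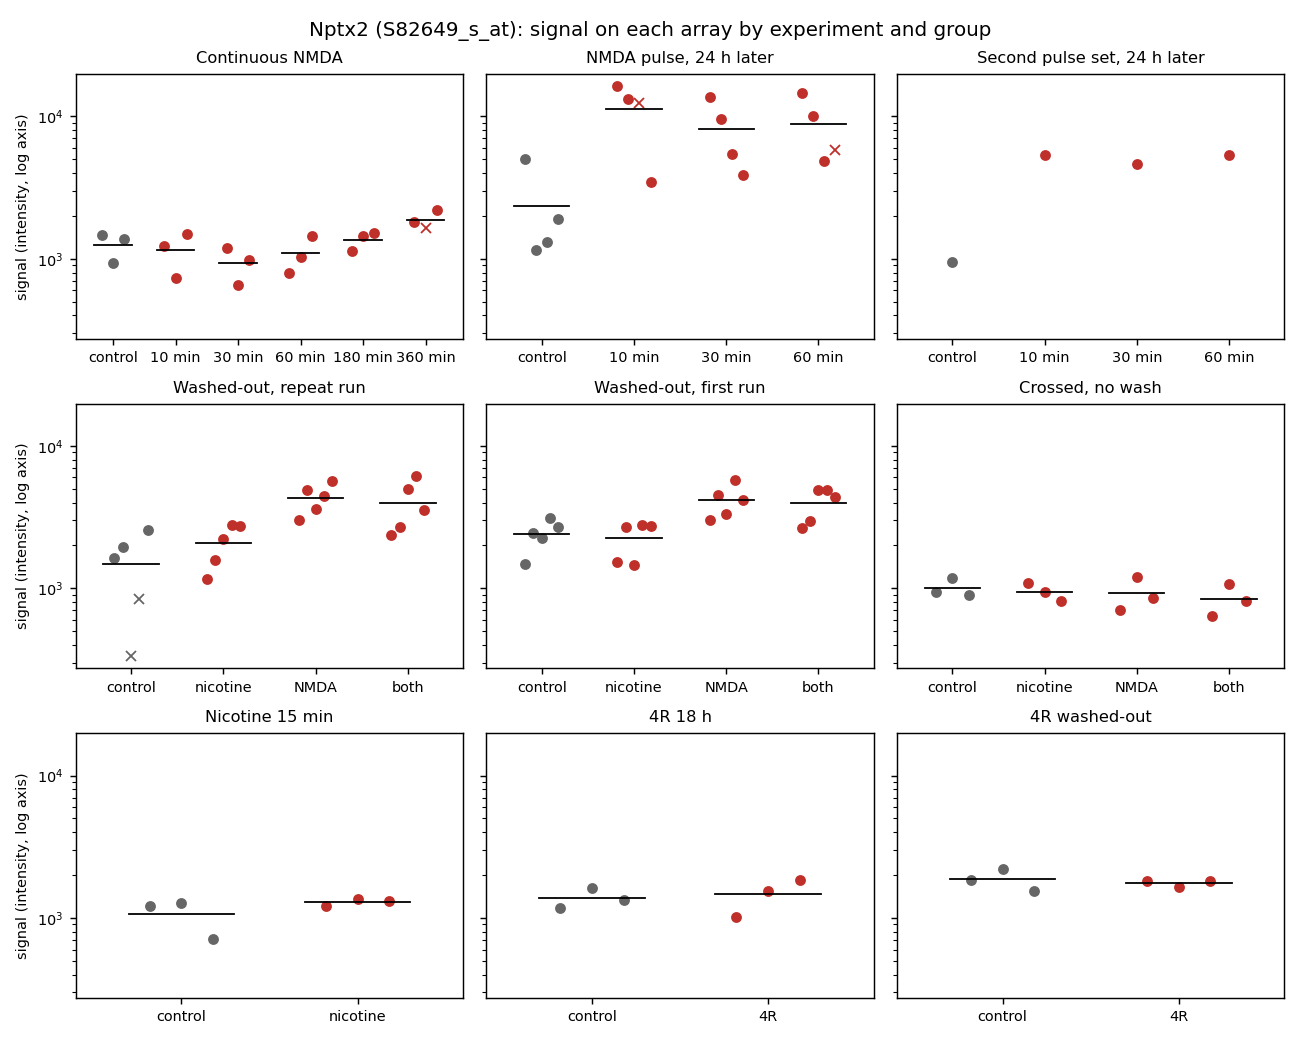
Signal of the Nptx2 probe set S82649_s_at (linear intensity on a log axis) on each array, by experiment and group; grey points are untreated arrays, red points treated ones, crosses are arrays that stood apart from their run, and lines are group means. The group means 24 h after a washed-off NMDA exposure lie above those of their controls. Arrays overlap, with pulsed ones at 3431 to 16307 and 1 pulse control at 5047, and with the lowest NMDA array of the first washed-out run at 3019 against a control at 3099, while the groups of the continuous and crossed experiments lie between 636 and 2186.

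The washed-out experiment measured Nptx2 in samples other than those of the pulse experiment. The gene was chosen with earlier results of these data known, so its tests here may not be independent of that choice. In the repeat run, S82649_s_at was at 1638, 1964, 334, 847 and 2566 on the 5 control arrays and at 3025, 4876, 3613, 4476 and 5682 on the 5 arrays of the NMDA pulse. Every NMDA array was above every control array, a pattern that 1.36% of the 884 probe sets showed. The group means were 1470 ± 888 (SD, n = 5) and 4334 ± 1044 (SD, n = 5). The log2 change was 1.76 (SE 0.42), with an adjusted p of 0.0895 in limma, where 0.226% of the probe sets were called. The exact permutation test of this single probe set, 2-sided, gave p = 0.00794, the smallest that 5 against 5 allows, and 0.159 after Benjamini-Hochberg adjustment over the 60 such tests made. The change did not pass after correction in this run.

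Controls 3 and 4, the lowest of the 5, are the arrays that stood apart. Without them the log2 change in S82649_s_at was 1.04 (SE 0.32, adjusted p = 0.083), with 1.81% of the probe sets called. Marker genes of several cell types varied within this control group too. The summed signal of the neuronal markers was 44440 on the lowest control array of the repeat run against a median of 166387 over its 5 controls, and was 148372 to 179830 on the NMDA arrays. On the first run, where no array stood apart, it was 177004 to 201826 on the controls and 167750 to 186010 on the NMDA arrays. The astrocyte markers summed to 6743 to 36253 on the repeat-run controls (median 30995) and to 24655 to 37752 with NMDA. For the oligodendrocyte markers these ranges were 3790 to 14389 (median 5163) and 4236 to 8347, and for Itgam 134 to 2069 (median 266) and 295 to 489. Their part in the Nptx2 values was not tested.

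The first run of the same samples gave a smaller Nptx2 change that passed the threshold in limma. S82649_s_at was at 1486, 2459, 2257, 3099 and 2713 on the controls and at 3019, 4520, 3301, 5724 and 4170 with NMDA. Of the 5 NMDA arrays, 4 were above the highest control and the lowest was below it by a small margin. The means were 2403 ± 601 (SD, n = 5) and 4147 ± 1074 (SD, n = 5). The exact permutation test gave p = 0.0159, and 0.159 after Benjamini-Hochberg adjustment over the 60 such tests, which did not pass. The log2 change was 0.78 (SE 0.25, adjusted p = 0.0418 in limma), in a run where 14% of the 884 probe sets were called and the median change over all of them was 0.16. Under quantile normalization it was 0.68 with an adjusted p of 0.137, and leaving out single arrays gave 0.62 to 0.88. For 7 of the 10 arrays, leaving the array out ended the call, and the lowest value, 0.62 (adjusted p = 0.109), came without control 1. The mean of both runs gave 1.27 (SE 0.28, adjusted p = 0.0235), with 1.02% called. That mean includes the repeat-run readings of controls 3 and 4 and was not fitted without them.

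In neurons that had received nicotine for 18 h, the NMDA pulse was set against nicotine alone. In the repeat run S82649_s_at was at 1165, 1569, 2226, 2777 and 2735 with nicotine and at 2368, 2702, 4957, 6146 and 3532 with both. Of the 5 arrays with both agonists, 3 were above every nicotine array. The log2 change was 0.87 (SE 0.42, adjusted p = 0.994), in a comparison where limma called 0% of the probe sets and 43 had an unadjusted p under 0.05. The first run gave nearly the same size with less spread. There the nicotine arrays were at 1537, 2707, 1452, 2780 and 2754 and the arrays with both at 2655, 2990, 4926, 4879 and 4370, a log2 change of 0.82 (SE 0.25, adjusted p = 0.0946, 2.04% called). The interaction, which asks whether NMDA changed Nptx2 by another amount with nicotine than without it, was -0.89 (SE 0.59, adjusted p = 0.755) on the repeat run, -0.17 (SE 0.43, adjusted p = 0.986) without controls 3 and 4, and 0.04 (adjusted p = 0.985) on the first.

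S82649_r_at separated nicotine from nicotine with NMDA on both runs. It was at 736, 1249, 508, 1215 and 678 with nicotine and at 1572, 1824, 2592, 2959 and 3084 with both on the repeat run. The groups did not overlap, as for 3.05% of the probe sets. In the first run it was at 875, 722, 891, 1118 and 1344 with nicotine and at 1653, 1617, 3477, 3497 and 2310 with both, again without overlap, as for 2.6% of the probe sets. The log2 changes were 1.42 (SE 0.53, adjusted p = 0.715) and 1.25 (SE 0.38, adjusted p = 0.0946). Without controls 3 and 4, which enter this comparison only through the shared estimate of spread, the repeat run gave 1.42 with an adjusted p of 0.0275 and 2.83% called.

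For NMDA against no agonist, the probe sets of Nptx2 disagreed. S82649_r_at on the repeat run was at 2047, 690, 12527, 2000 and 1041 on the controls and at 1027, 3417, 1959, 2172 and 2377 with NMDA. The value of 12527 came from control 3, the array that correlated least with its run. The log2 change was -0.02 (SE 0.53, adjusted p = 0.988) with all arrays and 0.81 (adjusted p = 0.249) without controls 3 and 4. The first run gave 0.14 (SE 0.38, adjusted p = 0.813), and the ranges of the groups overlapped.

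Nicotine alone gave no change in Nptx2 past the threshold. For S82649_s_at the log2 difference from control was 0.70 (adjusted p = 0.335) on the repeat run, -0.02 (adjusted p = 0.982) without controls 3 and 4, and -0.11 (adjusted p = 0.848) on the first run. For S82649_r_at it was -1.27 (SE 0.53, adjusted p = 0.228) on the repeat run, -0.43 (adjusted p = 0.817) without controls 3 and 4, and -0.67 (SE 0.38, adjusted p = 0.392) on the first run. No probe set was called on the repeat run, where 178 had an unadjusted p under 0.05 in limma, and 0.339% were called on the first.

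**Figure D2:**
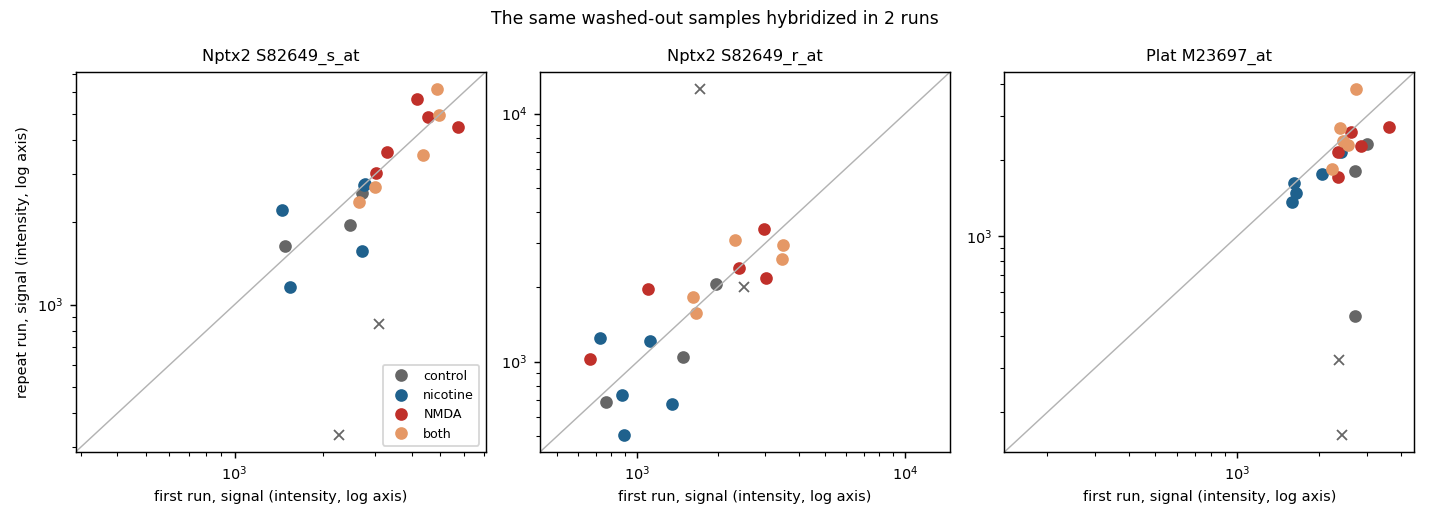
Signal of the 3 probe sets in the 20 washed-out samples on the first run (horizontal, linear intensity on a log axis) and on the repeat run (vertical, log axis), coloured by group, with the line of equal signal; crosses are controls 3 and 4, which stood apart on the repeat run. For S82649_s_at the other 18 samples lie between 0.579 and 1.53 times their first signal, and the crosses at 0.148 and 0.273 times.

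The arrays of the first and the repeat run can be compared sample by sample. Over all probe sets, 18 samples correlated with themselves at 0.938 to 0.975, and controls 3 and 4 at 0.193 and 0.586. For Plat the repeat signal was 0.177 to 1.41 times the first in the 18 samples and 0.067 and 0.135 times in controls 3 and 4. For S82649_r_at these values were 0.504 to 1.79, and 7.34 and 0.798. The low or high readings of both members on these controls were thus not seen in the same RNA on the first run.

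While NMDA stayed on the neurons, Nptx2 showed no change past the threshold at any time. S82649_s_at was at 1466, 938 and 1368 on the 3 untreated arrays, at 1223, 728 and 1487 after 10 min, and at 1182, 651 and 982 after 30 min. After 60 min it was at 790, 1032 and 1446, and after 180 min at 1139, 1437 and 1504. These groups overlapped with the controls. After 360 min the arrays were at 1820, 1648 and 2186, all above the highest control, as for 4.19% of the probe sets. The log2 changes were -0.15, -0.40, -0.21, 0.12 and 0.57 (SE 0.32), and the last had an adjusted p of 0.737 and was 0.65 (adjusted p = 0.825) without replicate 3, which stood apart. The 95% interval at 360 min ran from -0.10 to 1.23. Limma called 0.679% of the probe sets at 60 min and 0.452% at 180 min. At 360 min it called 0%, with 72 at an unadjusted p under 0.05. The exact permutation p was 0.1, the smallest that 3 against 3 allows. S82649_r_at changed by 0.51, -0.20, -0.40, -0.05 and 0.67 (SE 0.47), with no adjusted p under 0.844. At 360 min its arrays were at 920, 3317 and 1261, and without replicate 3, the highest, the change was 0.16 (SE 0.45, adjusted p = 0.997).

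The 30 min exposure was used both with a wash and a 24 h wait and without them, so its effect on Nptx2 can be compared between the experiments. The log2 change in S82649_s_at of the washed-off pulse minus that of the continuous exposure was 2.17 (SE 0.58, 95% interval 0.98 to 3.35, adjusted p = 0.299) with the repeat run. It was 1.45 (adjusted p = 0.288) without the arrays that stood apart and 1.18 (adjusted p = 0.297) with the first run. The difference was above 0 in each version and did not pass after adjustment over 884 probe sets, of which 0% were called and 55 had an unadjusted p under 0.05. This comparison was chosen after the values were seen, and the wait of 24 h cannot be told apart from the run.

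In the crossed experiment, where the neurons were collected directly after 60 min of NMDA, Nptx2 stayed near its control level. S82649_s_at was at 939, 1172 and 903 without agonist, at 1092, 937 and 820 with nicotine, at 706, 1201 and 857 with NMDA and at 636, 1080 and 814 with both. All 4 groups overlapped. The log2 changes were -0.14 for NMDA (SE 0.26, 95% interval -0.70 to 0.42) and -0.08 for nicotine (95% interval -0.63 to 0.48), with adjusted p of 0.995 and 0.974. Limma called 0.905% of the probe sets with NMDA. With nicotine it called 0%, and 40 had an unadjusted p under 0.05.

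The shorter nicotine exposure and 4R gave no Nptx2 change past the threshold either. After 15 min of nicotine S82649_s_at was at 1206, 1357 and 1304 against 1211, 1270 and 716, a log2 difference of 0.30 (SE 0.22, 95% interval -0.20 to 0.80). After 18 h of 4R it was at 1013, 1557 and 1841 against 1166, 1625 and 1341, a difference of 0.06 (SE 0.25, 95% interval -0.52 to 0.64). After 4R and 24 h without it the arrays were at 1815, 1661 and 1810 against 1854, 2216 and 1550, a difference of -0.07 (SE 0.21, 95% interval -0.56 to 0.42). The groups overlapped in each of these. Limma called 0% of the probe sets in all 3 comparisons, where 29, 18 and 14 had an unadjusted p under 0.05.

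**Figure D3:**
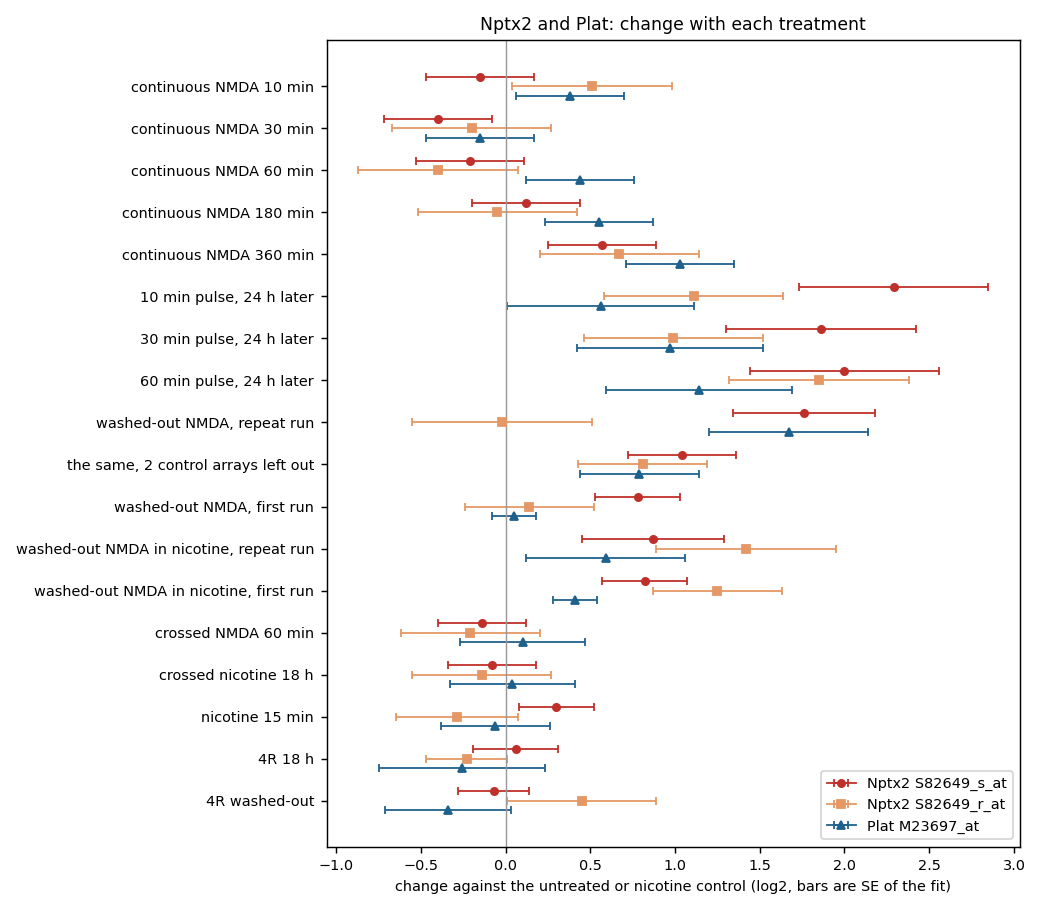
Mean log2 change of the 3 probe sets with each treatment; points are fitted changes against the untreated group, or against nicotine alone where stated, and bars are SE of the fit. The pulse values are a description, since the gene was chosen by them. S82649_s_at lies at 1.86 to 2.29 after the pulses, at 0.78 to 1.76 in the washed-out NMDA rows and at -0.40 to 0.57 in the continuous rows.

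The mean signal of Plat, the protease of the set, was also above that of its control after each pulse, with arrays that overlapped the controls. Its untreated cultures were at 2927, 830, 1533 and 1522. After 10 min of NMDA they were at 3975, 5662, 523 and 2307, after 30 min at 3473, 3687, 2462 and 2934, and after 60 min at 4163, 4463, 2233 and 3540. The reading of 523 came from the 10 min array of culture 3 that stood apart, and the treated array was above its own control in 3 of 4 cultures after 10 min and in 4 of 4 after 30 and 60 min. The mean log2 changes were 0.56, 0.97 and 1.14 (SE 0.55), and 1.24, 0.97 and 1.13 without the arrays that stood apart. In the second pulse set Plat read 513 without NMDA and 4365, 4014 and 4214 after the 3 pulses, which is 8.5, 7.82 and 8.21 times the single control.

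Under continuous NMDA, Plat had its highest values at 360 min, and no time passed the threshold. It was at 215, 392 and 368 on the controls, at 400, 538 and 392 after 10 min, and at 323, 327 and 199 after 30 min. After 60 min it was at 491, 456 and 437, after 180 min at 571, 352 and 631, and after 360 min at 800, 810 and 619. At 360 min every treated array was above every control, as for 4.19% of the probe sets. The mean was 743 ± 108 (SD, n = 3) against 325 ± 95.7 (SD, n = 3). The log2 changes were 0.38, -0.15, 0.44, 0.55 and 1.03 (SE 0.32). At 360 min the 95% interval was 0.35 to 1.71 and the adjusted p 0.275 in limma, and without the array that stood apart the change was 0.97 (adjusted p = 0.358). The groups after 10 and 60 min were above all controls as well, at 10 min by a margin lost in rounding, as were 3.73% and 3.28% of the probe sets at those times. With 3 arrays a group, the exact permutation test cannot go below 0.1.

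In the washed-out experiment the values of Plat with NMDA differed between the runs, and neither passed. On the first run it was at 2713, 2991, 2425, 2371 and 2705 on the controls and at 2335, 3622, 2353, 2839 and 2624 with NMDA, and the groups overlapped. The log2 change was 0.05 (SE 0.13, adjusted p = 0.83). On the repeat run the controls were at 480, 2324, 163, 321 and 1806 and the NMDA arrays at 2152, 2699, 1715, 2287 and 2581, a change of 1.67 (SE 0.47, adjusted p = 0.149). Without controls 3 and 4 it was 0.79 (adjusted p = 0.222). Control 1, which did not stand apart, read 480 on the repeat run and 2713 on the first.

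With nicotine before the pulse, Plat was at 1622, 2413, 1641, 1594 and 2049 on the first run and at 2438, 2553, 2720, 2385 and 2233 with both agonists. Of the 5 arrays with both, 3 were above every nicotine array. The log2 change of NMDA within nicotine was 0.41 (SE 0.13, adjusted p = 0.127), and with the sample numbers as a block it passed, at an adjusted p of 0.0332. On the repeat run it was 0.59 (SE 0.47, adjusted p = 1). Nicotine alone against control gave -0.50 (adjusted p = 0.0779) on the first run and 1.24 (adjusted p = 0.214) on the repeat run. Without controls 3 and 4 the repeat run gave 0.36 (SE 0.35, adjusted p = 0.835). The first-run value passed with the block, at an adjusted p of 0.0398.

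In the crossed experiment Plat was at 248, 749 and 427 on the controls, at 408, 584 and 375 with nicotine, at 530, 581 and 338 with NMDA and at 415, 688 and 414 with both, and the groups overlapped. The log2 changes lay between 0.02 and 0.12 over the 5 comparisons, the interaction included. After 18 h of 4R it was at 401, 1084 and 1048 against 473, 1140 and 1516, a difference of -0.26 (SE 0.49). After 4R and the wait it was at 1205, 1035 and 2158 against 1470, 1338 and 2870, a difference of -0.34 (SE 0.37). In the 15 min nicotine experiment Plat lay below the filter on low signals, at 156, 188 and 219 against 282, 192 and 137, and was not tested.

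**Figure D4:**
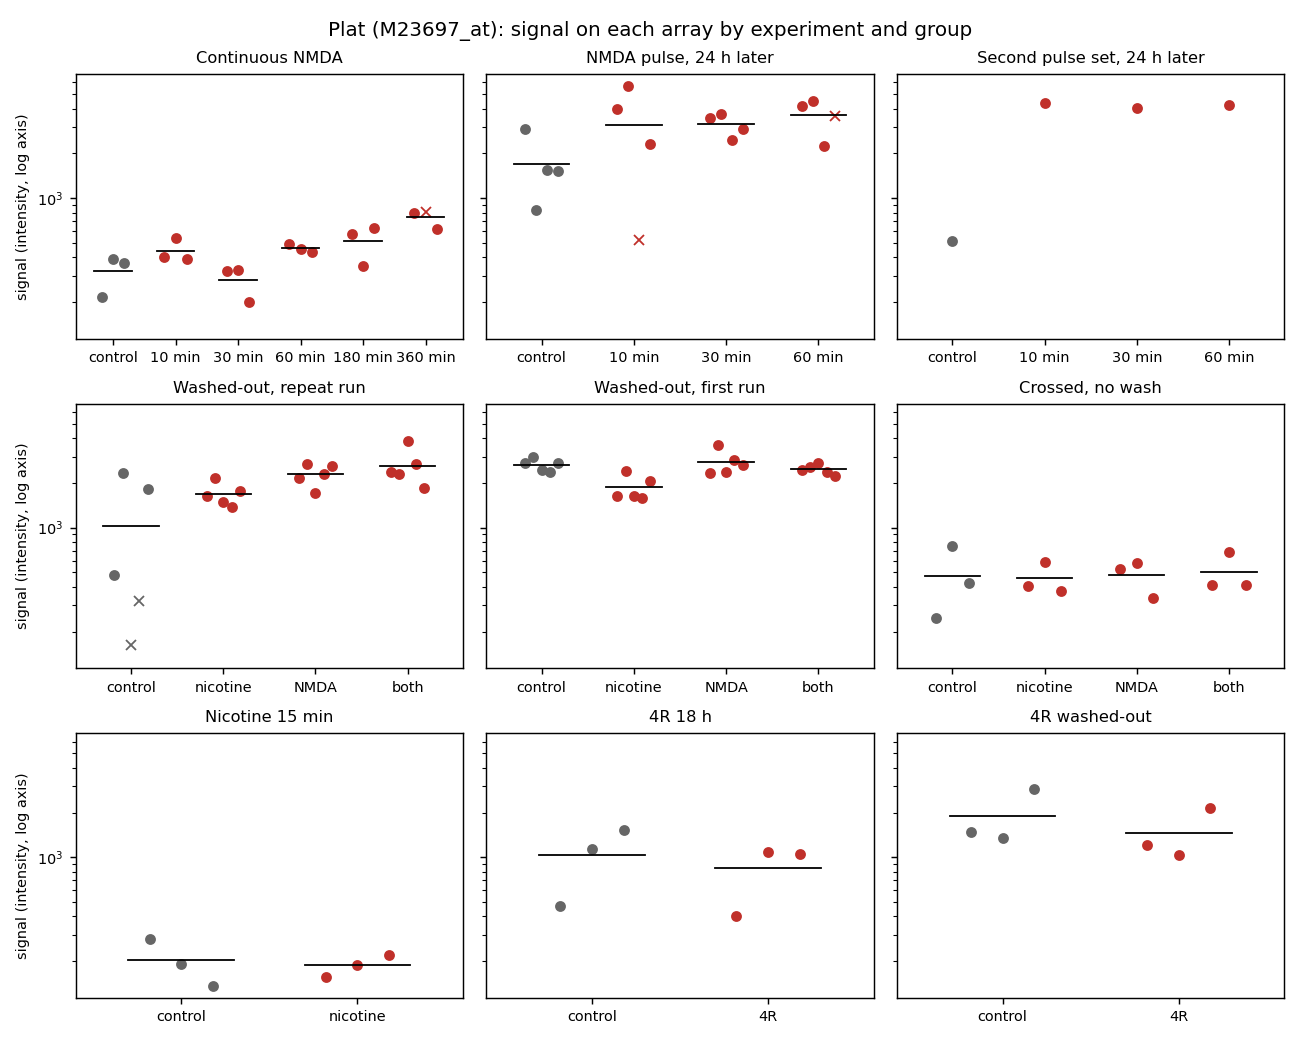
Signal of the Plat probe set M23697_at (linear intensity on a log axis) on each array, by experiment and group; grey points are untreated arrays, red points treated ones, crosses are arrays that stood apart from their run, and lines are group means. The continuous experiment goes from 215 on the lowest control to 810 after 360 min, and controls 3 and 4 of the repeat run lie at 163 and 321.

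The genes that act with the pentraxins were looked at beside Nptx2. Of 13 such genes 7 were on the array: Nptx2, the pentraxin receptor Nptxr, the AMPA receptor subunits Gria1 to Gria4, and Adam17, the protease known as TACE. On the first washed-out run 1 of 6 tested genes rose with NMDA, Nptx2 itself, where 11.1% of all probe sets were called higher. Nptxr was at -0.45 (SE 0.18, adjusted p = 0.104) by the probe set with the smallest p of its 3, and Gria1 at -0.31 (SE 0.16, adjusted p = 0.193) by M36418_s_at. Neither passed, and the values of their other probe sets are not given here. The list's median log2 change was -0.27 against 0.16 over all 884 probe sets. None of the 6 was called on the repeat run, where 5 were above 0 and the median was 0.33 against 0.03 over all probe sets. Adam17 was at -0.71 (SE 0.41, adjusted p = 0.359). That fit includes controls 3 and 4. In it the median change was 0.70 for the neuronal markers, 0.54 for the astrocyte markers and -0.32 for the oligodendrocyte markers. After 360 min of continuous NMDA none of 5 was called, and the median was -0.26 against 0.01. In the pulse experiment, which chose Nptx2, the list medians of 0.05, -0.11 and -0.14 after the 3 pulses stood beside -0.04, -0.06 and -0.11 over all probe sets.

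Of 18 genes of the plasminogen activator system, Plat and Serpine2, an inhibitor of such proteases, were on the array. Neither was called in any comparison of the replicated experiments fitted with all arrays and no block. Serpine2 was at -0.59 (SE 0.37, adjusted p = 0.313) with NMDA on the first washed-out run, at 0.36 (adjusted p = 0.749) on the repeat run and at 0.27 (adjusted p = 0.903) after 360 min of continuous NMDA. The repeat-run fit includes controls 3 and 4, which stood apart.

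Of 27 other secreted products of active neurons 13 were on the array. None of the 11 tested was called with NMDA on the first washed-out run, where the smallest p belonged to Penk, the precursor of enkephalins, at 0.43 (SE 0.19, adjusted p = 0.149), and to Sst, the precursor of somatostatin, at 1.62 (SE 0.75, adjusted p = 0.165). The list's median was 0.23 against 0.16 over all probe sets. Of 21 immediate early genes 11 were on the array, and 6 of 11 rose on that run, against 11.1% of all probe sets called higher. Nr4a3, an orphan nuclear receptor, was at 1.17 (SE 0.17, adjusted p = 0.00093) and Crem, which encodes a cAMP-responsive transcription factor, at 1.80 (SE 0.33, adjusted p = 0.00249). On the repeat run 1 of 11 rose, against 0.226% of all probe sets. It was Nr4a3, at 2.29 (SE 0.44, adjusted p = 0.0346). That fit includes controls 3 and 4, which stood apart, and the value of Nr4a3 without them is not given here. The lists' medians after the pulses, as a description, were 1.05, 0.88 and 0.76 for the other secreted products and 1.58, 1.48 and 1.43 for the immediate early genes.

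The genes whose pattern was most like that of Nptx2 were found by the Pearson correlation of log2 signal, centred on the controls of each run, over 84 arrays and 767 probe sets. Penk was first for S82649_s_at, at r = 0.81, followed by Nr4a3 at 0.73, Pnoc, the precursor of nociceptin, at 0.71, the interleukin 6 receptor gene Il6r at 0.68 and the secreted neuronal peptide precursor Vgf at 0.67. Without the 5 arrays that stood apart, Penk and Il6r were at 0.72, Pnoc at 0.71, the neurofilament gene Nefl at 0.70 and Vgf at 0.68. The correlation between the Nptx2 probe sets was 0.38 with all arrays and 0.73 without those 5. That between S82649_s_at and Plat was 0.66 and 0.69. Between S82649_r_at and Plat it was 0.00 and 0.46, and 0.46 with the first washed-out run in place of the repeat run. With the first washed-out run in place of the repeat run, the genes most like S82649_s_at were Penk at 0.79, Vgf at 0.75, Pnoc at 0.72, Bdnf at 0.70 and Il6r at 0.69, and its r was 0.71 with S82649_r_at and 0.52 with Plat. For Plat the genes most alike were Nr4a3 at 0.76, Atp1b1, a subunit of the sodium pump, at 0.75, Cited2 at 0.74, Hspe1 at 0.73 and Ckb at 0.73. Without the 5 arrays the first were Nefl at 0.73, Nr4a3 at 0.70 and Nptx2 at 0.69 by S82649_s_at. With the first washed-out run they were Nefl at 0.72, Ckb at 0.63 and Stat3 at 0.60, and Nr4a3 was not among the 5. These correlations are descriptions, since the arrays share treatments and runs.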

How the data were processed

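Each array read 1322 probe sets. The values deposited by the authors were taken as linear intensity, already scaled to a common level. Their software is, in the sources used here, not given. The 59 control probe sets were left out. Values were turned into log2 after adding, per run, the 10th percentile of its positive values, and probe sets with a run mean below the 30th percentile were left out, so that 884 were tested. Group means of all groups in a run were fitted in limma 3.58.1 (R 4.3.3, lmFit, eBayes with trend), and p-values were adjusted by Benjamini-Hochberg at a threshold of 0.05. The members, the gene lists and the rule for genes of like pattern (the 5 probe sets with 1 gene symbol and the highest r) were chosen with earlier results of these data known. Not every list gene that passed is named, nor is every comparison of the lists described. Where none passed, genes are named by the smallest p. Nptxr and Gria1 on the first washed-out run are named outside this rule. Arrays stood apart at a median r under 0.88. The repeat run was the main one for the washed-out experiment, since its label gives a fault as the reason for the repeat. The labels do not say which hybridization the fault touched. Culture dates pair the samples of the pulse, crossed and 4R experiments. In the continuous experiment 45 of 45 pairs of same-numbered samples deviated together at r over 0.1. The fits were also run on simulated data with independent noise, without paired samples and without arrays that stood apart. That check therefore does not cover those features of the data, and its outcome is not given here. The number of arrays limits the precision.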

Additional observations from a re-analysis of the deposited data

How the results depend on the processing

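Values are log2 changes. Of 1155 alternative values for the 3 probe sets outside the pulse experiment, where they were not tested, 1050 kept their sign and their side of the threshold. The block combined with leaving out arrays, the further fits of the first run, the repeat pulse arrays in place of the first ones and the difference between experiments were added after the data were seen.

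For Nptx2 S82649_s_at with washed-out NMDA, the replicate block gave 1.76 (adjusted p = 0.0502). The first run (0.78), the mean of both runs (1.27) and the block without the arrays that stand apart (0.86, adjusted p = 0.0343) passed. That mean includes the repeat-run readings of controls 3 and 4. Leaving out single arrays gave 1.34 to 2.03, with a pass without control 2 or control 5. Those controls did not stand apart, and each of these fits keeps controls 3 and 4, the lowest. Without controls 3 and 4 and with no block, the change did not pass. On the first run the block gave an adjusted p of 0.0024, quantile normalization 0.68, and single arrays 0.62 to 0.88. Within nicotine the block passed for S82649_s_at without the arrays that stand apart (0.87) and on the first run (0.82, adjusted p = 0.00363). It also passed for S82649_r_at (1.42 and 1.25), as did the fit of only the groups compared (1.42, adjusted p = 0.0299). For Plat on the first run it passed for nicotine (-0.50) and for NMDA within nicotine (0.41), where single arrays gave -0.60 to -0.45 and 0.36 to 0.50. With washed-out NMDA, Plat ranged from 1.24 to 2.10 over single arrays, and passed without control 2 or control 5. Those fits too keep controls 3 and 4. Without controls 3 and 4 and with no block, Plat did not pass. The numbers were not taken to pair samples in the washed-out and 15 min nicotine experiments, where 19 of 30 (first run 24 of 30) and 2 of 3 pairs of same-numbered samples had r over 0.1. The block changed no other call.

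Some signs turned, and the cause was not tested. Of the values concerned, only that of Plat with nicotine passed under any alternative. S82649_r_at with washed-out NMDA was 0.26 with median centring, 0.81 without the arrays that stand apart, 0.77 with the block too, 0.14 on the first run, 0.06 as the mean of both runs, and -0.40 to 0.61 over single arrays. S82649_s_at with washed-out nicotine was -0.02 without those arrays, -0.20 with the block too and -0.11 on the first run. Its interaction was 0.01 and 0.04 in the last 2 of these. On the first run Plat was -0.50 with nicotine, -0.14 for nicotine within NMDA and 0.36 for the interaction. Quantile normalization of the first run gave -0.03 for Plat and -0.01 for S82649_r_at with NMDA. In the continuous experiment S82649_r_at at 180 min was 0.05 with median centring and 0.03 with quantile normalization. In the crossed experiment Plat with nicotine was -0.03 with both, and nicotine within NMDA was -0.02 with the latter.

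Over single arrays left out, signs turned within these ranges. In the continuous experiment S82649_s_at ranged from -0.36 to 0.12 at 10 min and from -0.06 to 0.24 at 180 min, Plat from -0.36 to 0.03 at 30 min and S82649_r_at from -0.22 to 0.22 at 180 min. In the crossed experiment the ranges for Plat, S82649_r_at and S82649_s_at were -0.24 to 0.46, -0.61 to 0.11 and -0.34 to 0.02 for NMDA, -0.31 to 0.39, -0.38 to 0.17 and -0.18 to 0.03 for nicotine, and -0.17 to 0.19, -0.10 to 0.63 and -0.30 to 0.08 for nicotine within NMDA. For NMDA within nicotine they were -0.10 to 0.29 for Plat and -0.16 to 0.33 for S82649_r_at, and for the interaction -0.34 to 0.36 for Plat and -0.22 to 0.16 for S82649_s_at. In the washed-out repeat run S82649_r_at for nicotine within NMDA ranged from -0.06 to 0.36. On the first run NMDA gave -0.06 to 0.10 for Plat and -0.10 to 0.47 for S82649_r_at. There S82649_s_at ranged from -0.27 to 0.02 for nicotine, -0.18 to 0.06 for nicotine within NMDA and -0.10 to 0.20 for the interaction. After 15 min of nicotine S82649_r_at ranged from -0.61 to 0.05 and Plat from -0.26 to 0.15. With 4R, Plat ranged from -0.72 to 0.17 and S82649_s_at from -0.11 to 0.30 at 18 h, and S82649_s_at from -0.19 to 0.05 after the wait.

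The counts of probe sets called moved more. For washed-out NMDA they ranged from 0 to 124 over the alternatives against 2, for the pulses from 9 to 51, 7 to 43 and 4 to 38 against 20, 12 and 14, and for continuous NMDA at 360 min from 0 to 18 against 0. With 3 arrays a group, small changes could not be told from the spread.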

Other observations

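The untreated level of both genes differed between runs. The mean of S82649_s_at on untreated arrays was 1005 ± 146 (SD, n = 3) in the crossed experiment, 1066 ± 304 (SD, n = 3) in the 15 min nicotine experiment, 1257 ± 280 (SD, n = 3) in the continuous experiment and 1377 ± 232 (SD, n = 3) in the 18 h 4R experiment, where cells were collected without a 24 h wait. In runs with that wait it was 1873 ± 334 (SD, n = 3) for 4R, 2403 ± 601 (SD, n = 5) for the first washed-out run and 2350 ± 1826 (SD, n = 4) for the pulse experiment. The repeat of that washed-out run, with its 2 arrays that stood apart, was at 1470 ± 888 (SD, n = 5). The single control of the second pulse set, which also waited, read 954. Plat was at 204 ± 73.3 (SD, n = 3), 325 ± 95.7 (SD, n = 3), 475 ± 254 (SD, n = 3) and 1043 ± 528 (SD, n = 3) in the nicotine, continuous, crossed and 18 h 4R experiments. It was at 1892 ± 849 (SD, n = 3) for 4R with the wait, 2641 ± 251 (SD, n = 5) for the first washed-out run 1019 ± 979 (SD, n = 5) for its repeat, 1703 ± 880 (SD, n = 4) for the pulse experiment, and 513 in the second pulse set. Each run was scaled and hybridized on its own, so run and waiting time cannot be told apart.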
